A study of Rattus norvegicus with 12 samples.

Results

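The mRNA of 9 enzymes that form or oxidize hydrogen sulfide (H2S) was measured in the lungs of 12 male Sprague-Dawley rats aged 8 to 12 weeks. The rats fell into 4 groups of 3. The Control group was sham-treated over the same days, with air or saline in place of the exposures. The CS+LPS group inhaled cigarette smoke (CS) up to day 30 and received lipopolysaccharide (LPS), a bacterial cell wall product, into the trachea on days 5 and 19, a model of chronic obstructive pulmonary disease. The CS+LPS+NaHS group was in addition given NaHS, a salt that releases H2S, and the CS+LPS+PPG group was in addition given PPG, which blocks the enzyme CTH, both 2 h ahead of exposure. The lungs were removed 24 h later than the final exposure. No group received NaHS or PPG without CS and LPS, so the effect of either agent in lung without CS and LPS was not measured. Each rat's RNA was hybridized in a single colour to an array of its own. The members were all probes whose RefSeq accession mapped to the symbols Cth, Cbs, Mpst, Got1, Sqor, Ethe1, Suox, Tst and Cdo1, and this gave 1 probe for each of the 9 enzymes among 30367 probes for rat transcripts, or 9 of 14737 gene symbols. Values are log2 of the processed signal after each array was set to a common 75th percentile, so that a difference of 1 is a 2-fold difference. They can be compared between arrays for 1 probe, but not between probes.

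H2S is made from cysteine. CBS and CTH, the enzymes of transsulfuration, pass sulfur from homocysteine to cysteine and release H2S as a side product, whereas MPST releases it from 3-mercaptopyruvate, which the aminotransferase GOT1 (also called CAT) makes from cysteine. In mitochondria, SQOR oxidizes H2S and places its sulfur on an acceptor such as glutathione, ETHE1 oxidizes the resulting persulfide to sulfite, SUOX oxidizes sulfite to sulfate, and TST moves sulfur between thiosulfate and other acceptors. CDO1 oxidizes cysteine itself and so draws on the substrate from which H2S is made.

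The promoters of Cth and Cbs are shown because CTH is the enzyme that PPG blocks, and because Cbs was the only enzyme of the 9 that was lower in every exposed rat than in every control rat. The sequences are those of RefSeq on assembly GRCr8, from 250 bases before to 50 bases after the start of the gene, and entries were used for 6 of the 9 enzymes (Cth, Cbs, Mpst, Got1, Sqor and Suox). Both lie on the minus strand, and they are printed 5′ to 3′ along the gene. Capitals mark the GC box GGGCGG, a site of the kind bound by SP1, and the CCAAT box CCAAT, each searched on both strands.
Cth, chr2:249661017-249661316: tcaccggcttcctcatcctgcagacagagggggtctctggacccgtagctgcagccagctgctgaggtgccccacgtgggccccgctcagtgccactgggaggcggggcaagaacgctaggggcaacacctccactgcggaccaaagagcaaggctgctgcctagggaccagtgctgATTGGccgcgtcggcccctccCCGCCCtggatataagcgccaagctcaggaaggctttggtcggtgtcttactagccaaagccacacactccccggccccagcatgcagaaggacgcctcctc
Cbs, chr20:9733876-9734175: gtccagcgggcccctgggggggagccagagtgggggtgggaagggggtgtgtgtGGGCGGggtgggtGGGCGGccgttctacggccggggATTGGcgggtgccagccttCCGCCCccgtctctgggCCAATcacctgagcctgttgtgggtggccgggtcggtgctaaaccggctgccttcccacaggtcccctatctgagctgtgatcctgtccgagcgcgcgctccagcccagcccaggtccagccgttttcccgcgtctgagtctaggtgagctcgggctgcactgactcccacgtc
The Cbs window held 3 GC boxes and 2 CCAAT boxes, and the Cth window held 1 of each. Of all 33469 promoter windows of this length, 33.1% held a GC box and 37.5% held a CCAAT box. Neither window held the core of the amino acid response element (TGATGNAA, present in 3.98% of all windows) or of the antioxidant response element (TGACNNNGC, 12.1%). The GC content was 65% for Cth and 69.7% for Cbs, against a median of 51.7% over all windows. The arrays measured RNA and no binding, so these letters are given as a description.

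All 9 enzymes were well above background on all 12 arrays, as the scanner software calls it, and none of their spots was saturated. All 9 therefore entered the tests with 21239 probes, each of which had this call in the 3 rats of 1 group or more. The arrays lay on 2 slides, told apart by their barcodes. Slide 2 held the 3 CS+LPS arrays and control replicate 3, and slide 1 held the other 8 arrays, so a difference between CS+LPS and either treated group is also a difference between slides, and group and slide cannot be told apart. Control replicate 3 stood apart from the rest. Its 75th percentile of signal was 856, against 1430 to 2222 on the other arrays, and its correlation with them over the tested probes was 0.936 to 0.956, against at least 0.975 among the others. For 6 of the 9 enzymes (Cth, Mpst, Sqor, Ethe1, Suox and Tst) it was the lowest of the 12 arrays, and it was the lowest for 27.9% of all probes tested. Results that rest on this array are given with and without it. With 3 arrays in a group, their number limits the precision of every value.

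Lung markers were strong in all groups. The summed log2 signal of 6 alveolar type 2 markers (of 7 listed) was 19.9 to 20.34 in Control and 19.79 to 20.18 in the exposed rats. Of 6 liver markers, Alb, Apoa1 and Fgb did not pass the filter on dim probes, whereas Serpina1 and Apoc3 were well above background on all 12 arrays and Ttr on 11, and the summed log2 signal of these 3 was 9.42 to 10.98 over all rats, with no liver marker called against Control. Of the 4 macrophage markers tested, 2, Cd68 and Adgre1, were called higher in CS+LPS against Control by the test used below (50%, against 25.2% of all probes). Mrc1 and Csf1r were not called there and overlapped with Control. Cd68 was the brightest of the 4 and carried most of their sum. The sum of 4 macrophage markers (of 5 listed, with Marco below the filter) was 12.2 to 13.33 in Control and 13.8 to 14.45 over the 9 exposed rats, and that of 5 neutrophil markers (of 7 listed, with Elane below the filter) was 12.89 to 14.19 in Control and 13.95 to 15.1 in the exposed rats. Control replicate 3 also differed from control replicates 1 and 2 in marker sums. Its sum of 6 heart muscle markers was 16.54, against 12.84 and 12.67. Its airway epithelium sum was 19.54, against 18.65 and 18.61, whereas its endothelium sum was close to theirs (16.87, against 16.93 and 16.95). In whole lung, fewer cells of a type and less RNA per cell cannot be told apart, and the part of these cells in the results below was not tested.

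Among the enzymes that form H2S, Cbs was lower after exposure and Cth was not called in any comparison (limma on all 12 arrays, two-sided, called at an unadjusted p under 0.05). In the CS+LPS group, 3 of the 9 enzymes were called against Control, namely Cbs and Cdo1, which were lower, and Ethe1, which was higher. Of all probes tested, 25.2% were called in that comparison, so a share of 3 in 9 was near the background. At a fold change of at least 2 as well, Cbs and Cdo1 were called (background 4.56%), and 0 enzymes had a Benjamini-Hochberg adjusted p under 0.05 over all probes (background 2.02%). The CS+LPS+NaHS and CS+LPS+PPG groups each had 1 enzyme called against Control, Cbs, both at an unadjusted p under 0.05 (backgrounds 17.1% and 29.3%) and with the fold change of at least 2 (2.67% and 4.38%). None had an adjusted p under 0.05 (0.0989% and 4.64%).

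**Figure D1:**
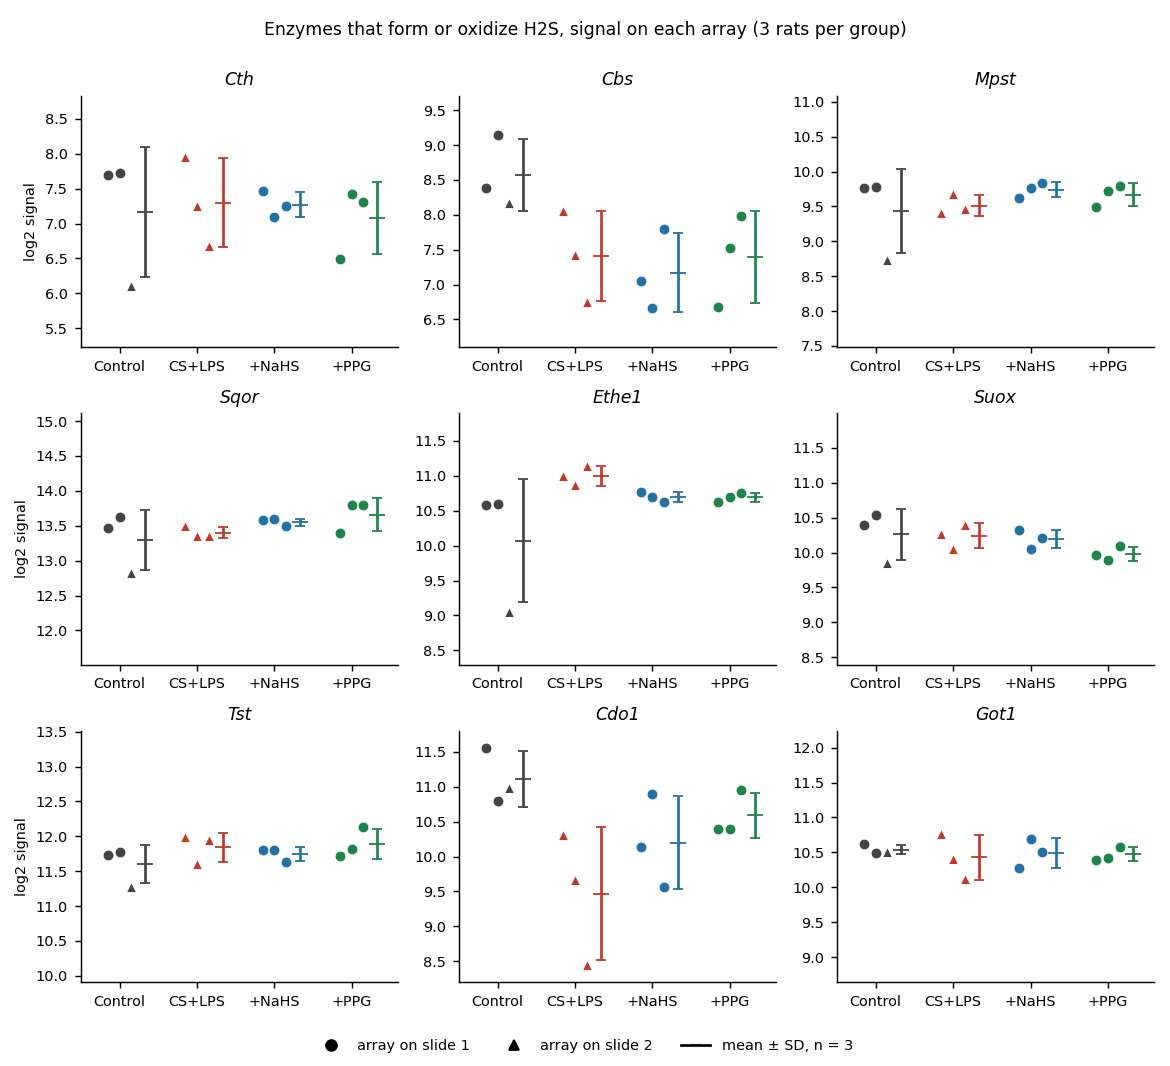
Log2 signal of the 9 enzymes on each of the 12 arrays, by group, with circles for slide 1, triangles for slide 2 and the mean ± SD of 3 rats beside them. All panels span the same range of log2 signal. All 9 exposed arrays lie below the 3 control arrays for Cbs, and control replicate 3 (grey triangle) is the lowest array for 6 enzymes.

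Cbs, which joins homocysteine to serine and also releases H2S, had log2 signals of 8.39, 9.14 and 8.17 in the 3 control rats. They were 8.05, 7.42 and 6.75 in CS+LPS, 7.05, 6.67 and 7.79 in CS+LPS+NaHS, and 6.68, 7.53 and 7.99 in CS+LPS+PPG. Every exposed rat was thus below every control rat, which held for 1 of the 9 enzymes and for 3.68% of all probes with a value on every array. The group means were 8.57 ± 0.51 (SD, n = 3) in Control, 7.41 ± 0.65 in CS+LPS, 7.17 ± 0.57 in CS+LPS+NaHS and 7.4 ± 0.66 in CS+LPS+PPG, so that the 3 exposed groups did not differ beyond their spread. Against Control the log2 difference was -1.16 in CS+LPS (SE 0.43, adjusted p = 0.141 by limma), which left 44.8% of the control level. It was -1.4 in CS+LPS+NaHS (adjusted p = 0.185 by limma), or 38% of the control level. In CS+LPS+PPG it was -1.17 (adjusted p = 0.112 by limma), or 44.5%. These 3 comparisons share the control rats.

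The fall of Cbs kept its direction when any single array was left out, but not always its call, and the methods' t-test called it with NaHS but not in CS+LPS or with PPG. In CS+LPS it was -0.87 without control replicate 2 and -0.83 without CS+LPS replicate 3, neither of them called. In CS+LPS+PPG it was -0.88 without control replicate 2 and -0.81 without CS+LPS+PPG replicate 1, again not called. With slide as a block, the difference of CS+LPS from Control was -0.76, not called, and rested on control replicate 3 alone, whereas on slide 1, with control replicates 1 and 2, the difference was -1.59 in CS+LPS+NaHS and -1.36 in CS+LPS+PPG, both called. The macrophage sum differed between the same groups without overlap, as given above, and the sum of the alveolar type 2 markers was 19.79 to 19.88 in CS+LPS, below the lowest control rat. Of the 6 alveolar type 2 markers none was called lower in CS+LPS and 1, Lamp3, was called higher (0.81, adjusted p = 0.045 by limma). The part of these cells in the fall of Cbs was not tested.

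Cth encodes the second enzyme of transsulfuration and the target of PPG. Its log2 signals were 7.69, 7.72 and 6.1 in Control, 7.96, 7.25 and 6.68 in CS+LPS, 7.46, 7.09 and 7.25 in CS+LPS+NaHS, and 6.49, 7.43 and 7.31 in CS+LPS+PPG. The 4 groups overlapped, with means of 7.17, 7.3, 7.27 and 7.08 in that order. The log2 difference of CS+LPS from Control was 0.12, with a 95% interval from -0.87 to 1.12, or 0.548 to 2.17 times the control level. That of CS+LPS+PPG from CS+LPS was -0.22, with an interval from -1.21 to 0.77. Changes of Cth within these intervals were not detectable with 3 rats in a group. CS+LPS+NaHS and CS+LPS+PPG, which lie on the same slide, differed by 0.19 (95% interval -0.8 to 1.18).

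The value for Cth depended on control replicate 3. Without it, CS+LPS was -0.41 from Control (SE 0.36) and CS+LPS+PPG was -0.63 (SE 0.36), neither of them called, while with slide as a block, where this array is the only control for CS+LPS, the difference was 1.19 and was called (adjusted p = 0.0581 by limma). The same block gave -1.63 for CS+LPS+NaHS against CS+LPS (adjusted p = 0.0665 by limma), again through that array. For CS+LPS+PPG against CS+LPS it gave -1.82 (adjusted p = 0.0473 by limma), likewise through that array. In these 3 comparisons the block gave 8830, 4890 and 4793 of the 21239 probes an adjusted p under 0.05. Cth was also among the more variable probes. Its processed signal ran from 37.4 to 352 over the 12 arrays, and its SD within groups, 0.63, exceeded that of 92.8% of the probes tested. Cbs (0.6, 91.8%) and Cdo1 (0.63, 93.1%) were as variable, against a median SD of 0.26.

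Mpst, the H2S-forming enzyme that uses 3-mercaptopyruvate, differed little between groups. Its log2 signals were 9.76, 9.78 and 8.73 in Control, 9.4, 9.68 and 9.46 in CS+LPS, 9.62, 9.76 and 9.84 in CS+LPS+NaHS, and 9.49, 9.72 and 9.8 in CS+LPS+PPG. All groups overlapped, and no difference from Control exceeded 0.31 (CS+LPS+NaHS, 95% interval -0.23 to 0.86). Without control replicate 3, the CS+LPS group was -0.26 from Control and not called. With slide as a block it was 0.78 (adjusted p = 0.00631 by limma), so that even the sign rested on that array. In that comparison the block gave 8830 of the 21239 probes an adjusted p under 0.05.

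Got1, which also serves the transfer of reducing equivalents into mitochondria, had the smallest SD within groups of the 9 enzymes (0.2). Its log2 signals were 10.62, 10.49 and 10.51 in Control, 10.76, 10.41 and 10.12 in CS+LPS, 10.28, 10.69 and 10.51 in CS+LPS+NaHS, and 10.39, 10.42 and 10.58 in CS+LPS+PPG. The 4 means lay between 10.43 and 10.54. The 95% interval of CS+LPS against Control was -0.49 to 0.26, so that a 2-fold change of this mRNA lay outside it. Control replicate 3 did not stand apart for Got1, and the difference was -0.13 without it and -0.09 with slide as a block.

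In the mitochondrial oxidation of H2S, Ethe1 was higher in CS+LPS and the other 3 enzymes were not called. Ethe1, a persulfide dioxygenase, had log2 signals of 10.58, 10.59 and 9.05 in Control and 11, 10.87 and 11.14 in CS+LPS. They were 10.77, 10.7 and 10.63 in CS+LPS+NaHS and 10.62, 10.7 and 10.75 in CS+LPS+PPG. All 3 CS+LPS rats were above all other rats, and both treated groups lay narrowly above control replicates 1 and 2. The CS+LPS and Control arrays did not overlap for 3 of the 9 enzymes (Cbs, Ethe1 and Cdo1), as for 25.2% of all probes. Against Control, Ethe1 was higher by 0.93 in CS+LPS (SE 0.33, adjusted p = 0.129 by limma), or 1.91-fold, and it was called there alone, with differences of 0.63 in CS+LPS+NaHS (95% interval -0.1 to 1.36) and 0.62 in CS+LPS+PPG (-0.11 to 1.35).

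Part of that rise came from 1 array. Without control replicate 3 the difference of CS+LPS from Control was 0.42, with a smaller error (SE 0.11, adjusted p = 0.0959 by limma), and was still called, while the treated groups were 0.12 and 0.11 from Control, neither of them called. In the same fit Ethe1 was lower than in CS+LPS by 0.3 with NaHS (log2 difference -0.3, adjusted p = 0.192 by limma) and by 0.31 with PPG (-0.31, adjusted p = 0.18), both called there and neither called with all 12 arrays. With slide as a block the difference of CS+LPS from Control was 1.95 (adjusted p = 0.000137 by limma), since control replicate 3 alone stood for Control there. In that comparison the block gave 8830 of the 21239 probes an adjusted p under 0.05. The smallness of this p is therefore not particular to Ethe1. Without CS+LPS replicate 3 the difference of CS+LPS from Control was 0.86 and was not called, nor did the methods' t-test call it on all arrays. The CS+LPS rats are the only ones on slide 2 besides control replicate 3, and slide and group cannot be told apart for these values. The macrophage markers Cd68 and Adgre1 were also higher in CS+LPS than in Control, and their part was not tested.

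**Figure D2:**
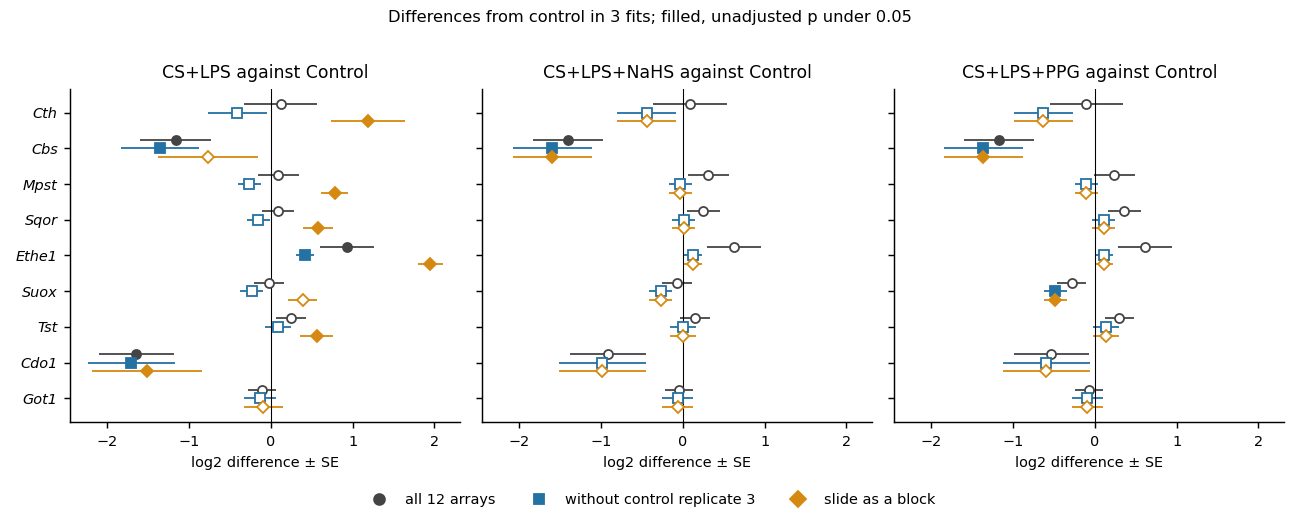
Log2 differences of the 9 enzymes from Control (horizontal axis, ± SE) in each exposed group, in the fit to all 12 arrays, without control replicate 3, and with slide as a block. Cbs and Cdo1 stay below 0 in all 3 fits, whereas Cth, Mpst, Sqor and Suox lie on opposite sides of 0 in CS+LPS without control replicate 3 and with slide as a block.

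Sqor, the first enzyme of H2S oxidation, had log2 signals of 13.47, 13.63 and 12.82 in Control, 13.49, 13.35 and 13.35 in CS+LPS, 13.58, 13.59 and 13.49 in CS+LPS+NaHS, and 13.39, 13.79 and 13.8 in CS+LPS+PPG. The means ran from 13.3 in Control through 13.4 in CS+LPS and 13.55 under NaHS to 13.66 under PPG, and no neighbours in that order were called. CS+LPS (SD 0.08) and CS+LPS+NaHS (SD 0.05) did not overlap, but their nearest values both rounded to 13.49, whereas the other neighbours overlapped. CS+LPS and CS+LPS+NaHS lie on different slides, so slide and group cannot be told apart there. The largest difference, CS+LPS+PPG against Control, was 0.36 (95% interval -0.09 to 0.8), and it was 0.11 without control replicate 3. The difference of CS+LPS+NaHS from CS+LPS was 0.16 (95% interval -0.29 to 0.6 by limma), which exceeded the SD of either group but not the spread pooled over all 4 groups. With slide as a block the sign of this difference reversed.

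Suox, which oxidizes sulfite to sulfate, had log2 signals of 10.4, 10.54 and 9.85 in Control, 10.27, 10.05 and 10.4 in CS+LPS, 10.32, 10.05 and 10.21 in CS+LPS+NaHS, and 9.96, 9.9 and 10.09 in CS+LPS+PPG. The lowest mean was that of CS+LPS+PPG (9.98), against 10.26 in Control, with a difference of -0.28 (95% interval -0.68 to 0.12) that was not called. All 3 rats given PPG were below control replicates 1 and 2. Without control replicate 3 the difference was -0.48 and was called (adjusted p = 0.0789 by limma). Against NaHS, on the same slide, Suox was 0.21 higher with NaHS and not called (95% interval -0.19 to 0.61).

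Tst, whose gene neighbours Mpst in the RefSeq annotation and whose product also handles cyanide, had log2 signals of 11.73, 11.78 and 11.28 in Control, 11.99, 11.6 and 11.94 in CS+LPS, 11.81, 11.81 and 11.63 in CS+LPS+NaHS, and 11.72, 11.82 and 12.14 in CS+LPS+PPG. All groups overlapped. The differences from Control were 0.25, 0.15 and 0.3, none of which was called (lowest adjusted p = 0.282 by limma, in CS+LPS+PPG). Without control replicate 3 they were 0.09, 0 and 0.14.

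Cdo1, the cysteine-oxidizing enzyme, had the largest difference of the 9. Its log2 signals were 11.56, 10.79 and 10.98 in Control, 10.31, 9.67 and 8.44 in CS+LPS, 10.13, 10.9 and 9.56 in CS+LPS+NaHS, and 10.4, 10.4 and 10.96 in CS+LPS+PPG. All CS+LPS rats were below all control rats and below all rats given PPG, whereas the rats given NaHS overlapped with every other group. The means ran from 9.47 ± 0.95 (SD, n = 3) in CS+LPS through 10.2 ± 0.67 with NaHS and 10.59 ± 0.32 with PPG to 11.11 ± 0.4 in Control. Against Control, Cdo1 fell by 1.64 on the log2 scale in CS+LPS (SE 0.46, adjusted p = 0.0816 by limma), to 32.1% of the control level. The differences with NaHS, -0.91 (95% interval -1.92 to 0.09), and with PPG, -0.53 (-1.53 to 0.48), were not called. Leaving out single arrays gave -2.06 to -1.13 for CS+LPS against Control and slide as a block gave -1.51, all called at the unadjusted threshold, but neither the methods' t-test nor a fit to slide 2 alone called it.

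Between the exposed groups, Cdo1 was the only enzyme called, and only in 1 comparison. It was higher by 1.11 in CS+LPS+PPG than in CS+LPS (SE 0.46, adjusted p = 0.425 by limma), or 2.16-fold. This made 1 of 9 enzymes called in that comparison, as against 10.5% of all probes, also at a fold change of at least 2 (background 2.05%), and 0 with an adjusted p under 0.05 (background 0.523%). The call did not hold without CS+LPS replicate 3, the lowest array (0.6), without CS+LPS+PPG replicate 3 (0.93), or with slide as a block (0.92). Nor did the methods' t-test call Cdo1 there, and it called Ethe1 instead (-0.31), so that its count of 1 enzyme was of another gene. In CS+LPS+NaHS against CS+LPS, 0 enzymes were called (limma, unadjusted p under 0.05, background 9.67%, or 1.7% with the fold change and 0.593% with an adjusted p), and Cdo1 differed by 0.73 (95% interval -0.28 to 1.73). The methods' t-test called 1 enzyme there, Ethe1. CS+LPS+NaHS and CS+LPS+PPG did not differ in any enzyme either (0 of 9 called by limma at an unadjusted p under 0.05 against 8.74% of all probes, 0.523% with the fold change and 0% with an adjusted p), and the methods' t-test also called 0. The largest difference there was -0.39 for Cdo1 (95% interval -1.39 to 0.62).

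**Figure D3:**
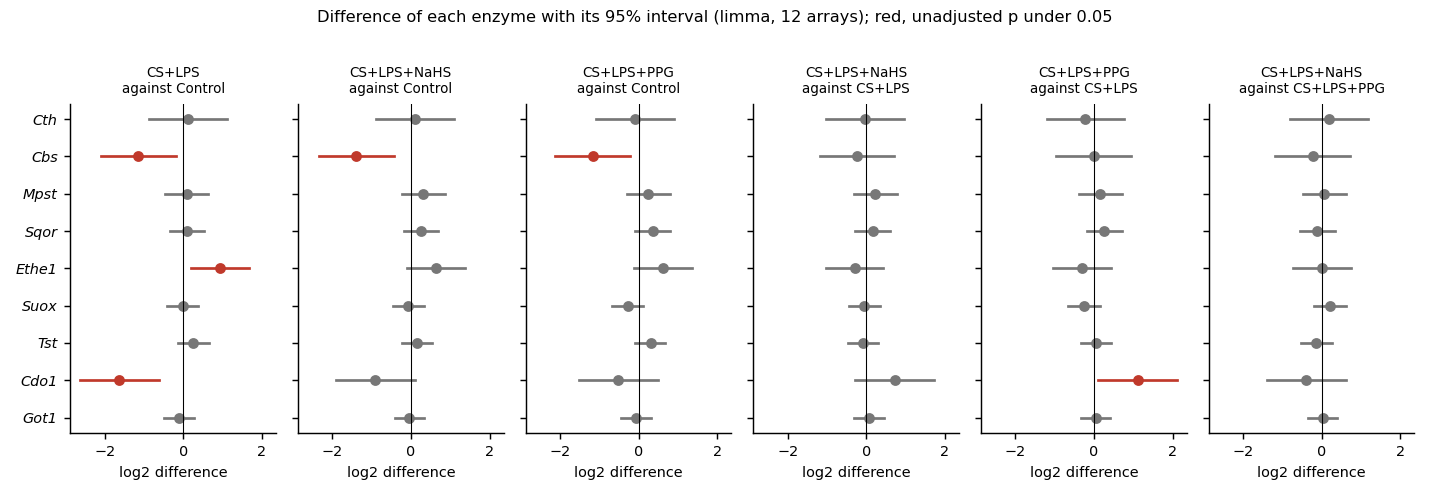
Log2 difference of each enzyme (rows) in the 6 comparisons (panels), as points with 95% intervals from limma on 12 arrays, in red where the unadjusted p was under 0.05. Cbs is below 0 against Control in all 3 exposed groups, and Cdo1 is below 0 in CS+LPS and above 0 for PPG against CS+LPS.

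Fat cells are known to express Cdo1 strongly. Of 8 fat markers listed, 5 were tested, and 1 of them was called in CS+LPS against Control (20%, against 25.2% of all probes) and all 5 in CS+LPS+PPG against CS+LPS (background 10.5%). Adipoq was well above background in all 3 rats given PPG and in 1 rat of each other group, so that it entered the test through the group where it was high, and Lep was below the filter. Cidec, a lipid droplet protein, was lower by 1.13 in CS+LPS than in Control (log2 difference -1.13, adjusted p = 0.0587 by limma) and higher by 1.31 in CS+LPS+PPG than in CS+LPS (adjusted p = 0.0784). Thrsp, Car3 and Cfd were higher by 2.88, 2.67 and 0.8 in CS+LPS+PPG than in CS+LPS (adjusted p of 0.459, 0.39 and 0.335 by limma). The fat hormone Adipoq had log2 signals of 7.91 to 10.64 in CS+LPS+PPG and 3.13 to 7.12 in CS+LPS, without overlap. The summed log2 signal of the 5 was 11.79, 11.81 and 13.54 in the control rats. It was 12.02 to 12.61 in CS+LPS, 12.18 to 12.83 under NaHS, and 13.02 to 13.61 under PPG. The CS+LPS rats thus lay within the range of the control rats. All rats given PPG were above all CS+LPS rats in this sum, and the part of fat in that difference of Cdo1 was not tested. The summed signal of 6 heart muscle markers was 15.74, 13.76 and 13.67 in CS+LPS and 15.37 to 16.17 under PPG, and overlapped through CS+LPS replicate 1 alone. Their median log2 difference between these groups was 2, and none of the 6 was called. Their sum was 12.84, 12.67 and 16.54 in Control and 13.35 to 15.8 under NaHS. Control replicates 1 and 2 had lower fat sums than every CS+LPS rat and higher Cdo1 than every CS+LPS rat. The sum adds linear signals and so follows mostly Cfd, the brightest of the 5 (medians 11.72 in Control and 12.42 in CS+LPS). Cidec went the other way, at 7.12 to 7.84 in Control and 6.17 to 6.76 in CS+LPS. The other markers of the 5 overlapped between these groups. The part of fat in the fall of Cdo1 in CS+LPS was not tested.

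**Figure D4:**
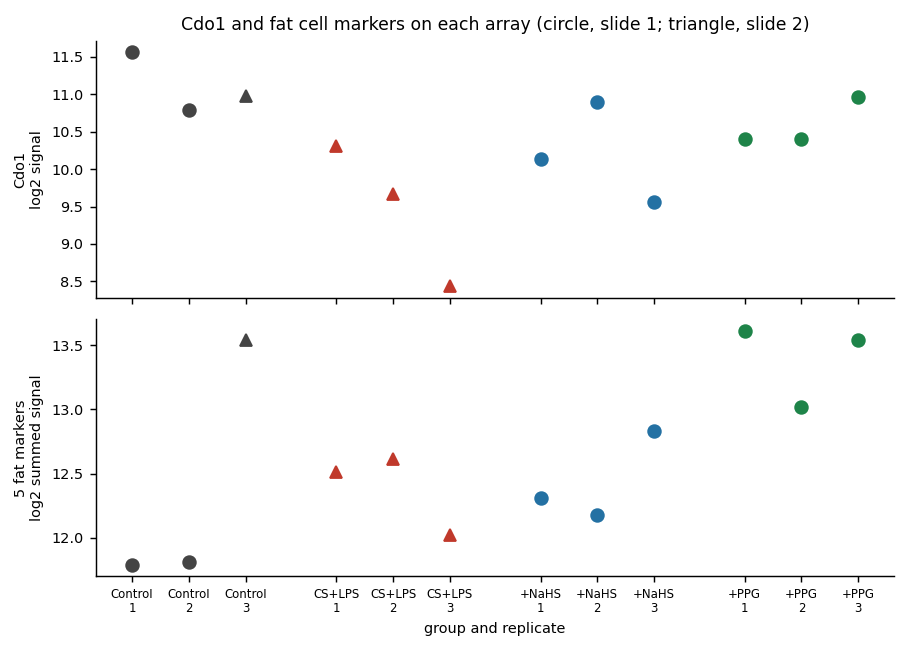
Log2 signal of Cdo1 (top) and log2 summed signal of 5 fat markers (bottom) on each array, in the order of group and replicate. The rats given PPG are above the CS+LPS rats in both panels, whereas control replicates 1 and 2 are high in Cdo1 and lowest in the fat sum. The sum follows mostly Cfd, and Cidec alone was higher in every control rat than in every CS+LPS rat.

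The genes whose signals ran most like each enzyme over the 12 arrays, among 10222 other genes, are given as a description, since all points share arrays and slides. For Cdo1 they were Maff (Pearson's r 0.91) and Cd163 (0.88), for Cbs Slc25a33 (0.9) and Raph1 (0.87), and for Cth Dcun1d2 (0.92) and Serf2 (0.91). Without control replicate 3, r was at least 0.86 for each of these 6 genes. For Mpst (Zfp622, 0.96) and Ethe1 (Hsd17b4 and Fbxo6, both 0.98), r fell to 0.83, 0.84 and 0.79 without that array. Sqor ran most like Rheb (0.94, and 0.81 without it) and Echs1 (0.91, and 0.74 without it), and Tst like Ufl1 and Armt1 (both 0.92, and 0.83 without it). Suox ran most like Tinagl1 (0.92) and Vtn (0.91), and Got1 like B3galnt2 (0.87) and St13 (0.83), which moved by at most 0.02 without that array. Among the enzymes themselves, Mpst and Sqor had the highest r, 0.85, which was 0.51 without control replicate 3, and Ethe1 and Mpst went from 0.73 to -0.69.

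The rest of sulfur amino acid metabolism was read from lists of 53 further genes, of which 44 were on the array and 41 passed the filter. In CS+LPS against Control, 4 were higher and 4 lower at an unadjusted p under 0.05, in CS+LPS+NaHS 3 and 6, and in CS+LPS+PPG 3 and 9. These were 19.5%, 22% and 29.3% of the 41 genes, near the 25.2%, 17.1% and 29.3% of all probes called in the same comparisons. The median log2 difference of the 41 genes was -0.06, -0.08 and -0.04 in the same order, against -0.04, 0 and -0.01 over all probes. No gene of these lists was called for NaHS or PPG against CS+LPS. Between NaHS and PPG only Trib3, a pseudokinase induced by amino acid shortage, was called, being higher by 0.54 with NaHS (adjusted p = 0.563 by limma). An adjusted p under 0.05 was reached by 3 of the 41 genes, all in CS+LPS+PPG against Control, namely Atf4, Papss2 and Txn1. Of all probes, 4.64% reached it in that comparison, so a share of 3 in 41 was near the background. With slide as a block the adjusted p was 0.0401 for Atf4, 0.0608 for Papss2 and 0.0535 for Txn1 by limma. The replicate block gave 0.0727, 0.0868 and 0.0708, and no filter 0.0732, 0.0867 and 0.0763 by limma. With only the 2 groups compared it was 0.175, 0.163 and 0.167 by limma. By the methods' t-test it was 0.186, 0.152 and 0.211. In these last 2 fits 0 of all probes had an adjusted p under 0.05. With the other normalizations, normexp, kept outlier spots, the stricter filter or 1 slide only, it stayed under 0.05 for all 3 genes. All 3 stayed called at the unadjusted threshold in each of these alternatives.

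Atf4, the transcription factor of the amino acid response and a known activator of Cth in other settings, had log2 signals between 14.88 and 15.28 in Control, 14.59 and 14.74 in CS+LPS, 14.4 and 14.58 under NaHS, and 14.33 and 14.47 under PPG. Every exposed rat was below every control rat, as for 3.68% of all probes with a value on every array. The same held for Cbs, Papss2 and Ddit3, and a link between these genes was not tested. The difference from Control was -0.4 in CS+LPS (adjusted p = 0.108), -0.59 with NaHS (adjusted p = 0.121) and -0.65 with PPG (adjusted p = 0.032 by limma). With slide as a block it was -0.63, -0.47 and -0.53, called in all 3. Ddit3, a transcription factor of the same response, was -0.37, -0.48 and -0.39 from Control (adjusted p of 0.19, 0.206 and 0.146 by limma), all called at the unadjusted threshold, of which only the difference with NaHS was called with slide as a block. Trib3 was -0.69 with PPG (adjusted p = 0.0782 by limma). Of the 6 transcription factors listed, 2, 2 and 3 were called lower in the 3 exposed groups and none higher (33.3%, 33.3% and 50%, against 25.2%, 17.1% and 29.3% of all probes).

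Papss2, which activates sulfate, the end product of H2S oxidation, for transfer to other molecules, was 10.07 to 10.27 in Control and 9.36 to 9.8 over all exposed rats. It differed from Control by -0.68 in CS+LPS (adjusted p = 0.0521 by limma), -0.63 with NaHS (adjusted p = 0.141) and -0.69 with PPG (adjusted p = 0.0418). Slide as a block gave -0.72, -0.61 and -0.67. The mean over its tested probes gave -0.5, -0.47 and -0.49, with an adjusted p of 0.0797 with PPG by limma. Papss2 was thus lower by a similar amount in all 3 exposed groups, and the difference between them was not called in any pair.

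Txn1, the thioredoxin that reduces protein disulfides and persulfides, was higher after exposure. Its log2 signal lay between 15.8 and 16.31 in Control, 16.53 and 16.83 in CS+LPS, 16.37 and 16.72 under NaHS, and 16.79 and 17.08 under PPG. It differed from Control by 0.54 (adjusted p = 0.103), 0.46 (adjusted p = 0.233) and 0.8 (adjusted p = 0.0361 by limma). The difference with NaHS was 0.31 with slide as a block and was not called. Of the other 4 genes of the thioredoxin system, Txnrd2 was higher in CS+LPS (0.48, adjusted p = 0.192 by limma), whereas Txnip, an inhibitor of thioredoxin (-0.7, adjusted p = 0.106), and Txnrd1 (-0.37, adjusted p = 0.161) were lower with PPG. The methods' t-test called none of these differences. Txnrd1 was not called with slide as a block (-0.38) or as the mean over its tested probes (-0.25). Txnrd2 was not called with normexp (0.27) or the replicate block (0.48).

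Other called genes stood next to the 9 enzymes in the pathway. Csad, which acts after CDO1 in the synthesis of taurine, was lower with NaHS (-0.77, adjusted p = 0.218 by limma) and PPG (-0.78, adjusted p = 0.102), and these differences were -0.39 and -0.4 with slide as a block. Of the aminotransferases that feed MPST or act on cysteine conjugates, Kyat1 was higher with NaHS (0.32, adjusted p = 0.26 by limma) and Kyat3 with PPG (0.51, adjusted p = 0.14). Neither was called once slide was a block, at 0.2 for Kyat1 and 0.35 for Kyat3. In glutathione metabolism, Ggt1, which breaks glutathione down outside cells, was lower with NaHS (-0.55, adjusted p = 0.278 by limma) and PPG (-0.78, adjusted p = 0.0772), and the related Ggt5 was lower in CS+LPS (-0.36, adjusted p = 0.185) and with NaHS (-0.36, adjusted p = 0.284). The slide block left Ggt1 at -0.24 with NaHS, not called, and -0.47 with PPG, still called, and Ggt5 was -0.27 with NaHS, not called. Quantile normalization gave -0.1 and -0.24 for Ggt5, neither called. The amino acid transporter Slc1a4 was well above background in 1 of 3 control rats and in all exposed rats, and so entered the test through the groups where it was high. Its log2 signals were 5.05 to 5.51 in Control and 5.35 to 5.84 in the exposed rats. It was called higher in all 3 exposed groups, but with normexp background correction the differences turned to -0.16, -0.18 and -0.05. Of 12 genes of the methionine cycle tested, only Shmt2 was called in CS+LPS (0.28, adjusted p = 0.196 by limma), none with NaHS, and only Ahcyl2 with PPG (-0.38, adjusted p = 0.0762). Shmt2 was not called with normexp (0.2), with no filter or by the methods' t-test. When single arrays were left out, its call held only without CS+LPS replicate 2.

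**Figure D5:**
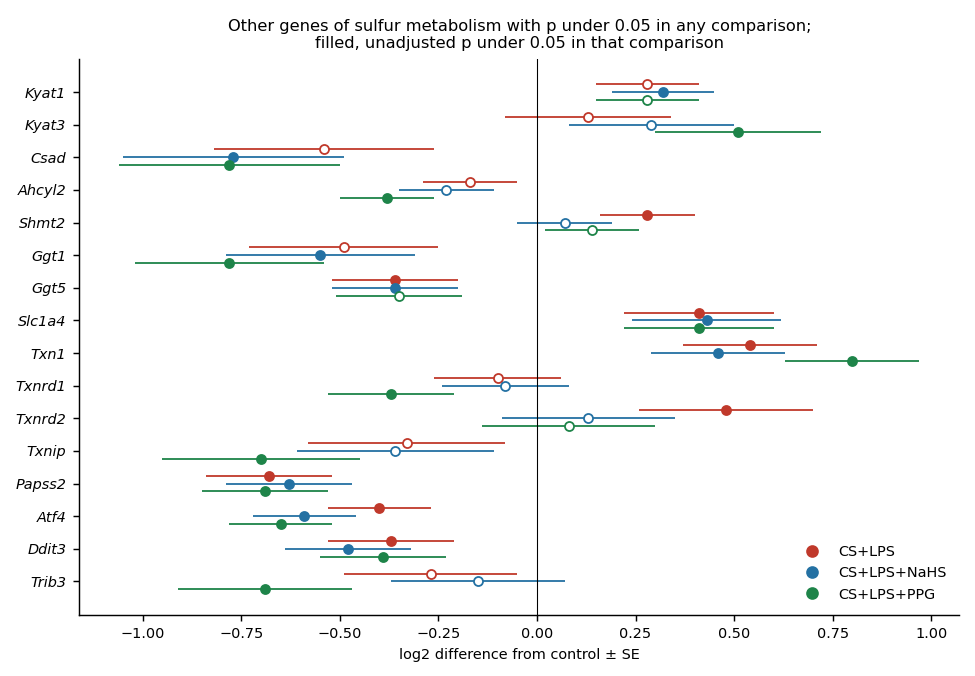
Log2 difference from Control (horizontal axis, ± SE) of the 16 further genes of sulfur metabolism that were called in any comparison, in CS+LPS (red), CS+LPS+NaHS (blue) and CS+LPS+PPG (green), filled where called. Atf4, Papss2 and Ddit3 are lower and Txn1 higher in all 3 groups.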

How the data were processed

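Per array, the authors deposited Agilent Feature Extraction 10.7.3.1 output, in which the processed signal is the spot intensity (linear) with background removed, and 5 probe lists with fold ratios, p-values and log2 signals, whose 60 signal columns were not used here. The members and gene lists were chosen with earlier results of these data known. Groups came from the sample labels, which do not state whether the RNA samples were processed on separate days. The p-values measure the spread between these rats within groups, which in Control also holds any difference between the 2 slides. Spots marked as outliers were left out, log2 intensities were averaged per probe, and every array was shifted so that its 75th percentile equalled the mean percentile of the 12 arrays. Symbols came from RefSeq accessions (assembly GRCr8, names only), found for 17514 probes. Where a gene had several probes, the brightest was used. Named besides the 9 enzymes are list genes with p under 0.05 (at most 4 per list and comparison) and the 2 genes most like each enzyme, of which 1 is not reported here. Computations used R 4.3.3 and limma 3.58.1, with 6 comparisons read from 1 fit, checked on simulated data. No exact permutation test of 3 against 3 can go below 0.1, so limma's p-values are given. Alternatives covered normalization, background correction (normexp, offset 50), filters, outlier spots, slide or replicate number as a block, 1 slide only and 2 groups only. They also covered the methods' t-test, leaving out each array and, for list genes with several tested probes, the mean over those probes.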

Additional observations from a re-analysis of the deposited data

How the results depend on the processing

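Of 576 values of the enzymes under alternatives other than leaving out an array, 534 were counted as unchanged. These kept their side of the threshold and either kept their direction or, with neither value called, changed sign by less than the SD within groups. All 54 were so counted under each of quantile normalization, another set of probes for the percentile, normexp and kept outlier spots. The same held for both other filters and the replicate block. The filters, the replicate block, the 2-group fits and the t-test leave each difference itself as it was and can change only its error and p. No enzyme spot was marked as an outlier, so keeping such spots could act only through the percentile and the error. The counts for these settings therefore say little on how stable the differences are. Each enzyme has 1 probe, so averaging the probes of a gene was not run for them. The counts of enzymes called follow, with the share of all probes called in the same fit in brackets. In CS+LPS against Control the number was 3 (25.2%), against 6 with slide as a block (50.6%). It was 0 with the methods' t-test (11.7%) and 1 to 3 without single arrays. In CS+LPS+NaHS against Control it was 1 (17.1%), against 2 on slide 1 only (16.7%) and 2 with only the groups compared (12%). Without single arrays it was 1 to 2. In CS+LPS+PPG against Control it was 1 (29.3%), against 2 with slide as a block (25.5%) and 3 on slide 1 only (29.3%). It was 0 with the methods' t-test (17.6%) and 0 to 2 without single arrays. In CS+LPS+NaHS against CS+LPS it was 0 (9.67%), against 5 with slide as a block (38.3%) and 1 with only the groups compared (14%). It was 1 with the t-test (12.8%) and 0 to 1 without single arrays. In CS+LPS+PPG against CS+LPS it was 1 (10.5%), against 4 with slide as a block (36.9%). It was 2 with only the groups compared (12.2%) and 0 to 2 without single arrays. The share of all probes was not taken for the fits without single arrays. With slide as a block, Mpst turned to -0.81 and -0.88 (NaHS and PPG against CS+LPS), and Sqor to -0.57 (NaHS against CS+LPS). The block sets every comparison with CS+LPS through control replicate 3, the only control on slide 2, and within 1 slide NaHS or PPG cannot be set against CS+LPS. For CS+LPS against Control within slide 2, the lone control was assumed to vary like the CS+LPS group. Normexp moved the median over all probes to -0.14, -0.1 and -0.09 against Control in CS+LPS, NaHS and PPG; it used the median spot signal. The replicate numbers did not pair the rats (correlations of same-numbered deviations -0.31 to 0.14). The replicate block gave 3, 1, 1, 0, 1 and 0 enzymes called in the 6 comparisons. Of all probes it called 22.6%, 14.7%, 25.8%, 8.7%, 9.09% and 6.4% in the same order.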
